A study of Homo sapiens with 12 samples.

Results

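The eukaryotic translation initiation factors were examined in 2 HNSCC cell lines treated with squamocin. Members were all protein-coding genes of the deposited tables whose symbol starts with EIF followed by a digit from 1 to 6, without the eIF2 kinases named EIF2AK. The rule found 50 genes, the same in both tables, among 29657 genes listed for SCC15 and 31055 listed for SCC25 (34227 in either). The RNA came from SCC15 and SCC25, established lines of oral squamous cell carcinoma labelled wild type (WT). Cells were treated for 24 h either with squamocin, given as ACGs (annonaceous acetogenins) in the labels and at 10 µg/mL in the study's methods, or with the solvent DMSO. Each line and treatment had 3 libraries, 12 in all, and no label states that these came from separate cultures, so that p-values measure only the spread between these libraries, which may be technical.

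Initiation is the step at which a ribosome is loaded onto an mRNA and placed at its start codon. eIF2 brings the initiator tRNA to the small ribosomal subunit, and eIF2B recharges eIF2 with GTP between rounds. eIF3 is a large scaffold on the small subunit, eIF1, eIF1A and eIF5 control the choice of the start codon, and eIF4F (the cap-binding eIF4E, the scaffold eIF4G and the helicase eIF4A) recruits the capped mRNA. Phosphorylation of eIF2 under stress and sequestration of eIF4E by the 4E-binding proteins are the best known brakes on the process, and neither is visible in mRNA levels.

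Libraries held between 16665563 and 22748845 reads on genes. Values are normalized counts, which are reads divided by 1 size factor per library, set by the authors within each line. Squamocin replicate 3 of SCC15 stood apart from its group, with a chi-square per degree of freedom of 67.9 and 60.1 against the other squamocin libraries of SCC15 and of 1.73 to 10.7 in all other pairs within a group. It held the highest of the 3 squamocin values for 33 of 49 members and the lowest for 12. Results for members in SCC15 are therefore given with and without it where a call changed or a called value moved by 1.5 times or more. Of 7 squamous epithelial markers, 5 reached a mean of 10 in SCC15 (KRT5 and DSG3 did not) and 7 in SCC25. The squamous markers summed to between 112494 and 118785 normalized counts with DMSO and between 208261 and 362488 with squamocin in SCC15, and to between 22192 and 22655 and between 45647 and 48181 in SCC25. The endothelial markers PECAM1 and CDH5 summed to between 212 and 259 with DMSO and between 10.4 and 21.1 with squamocin in SCC25. In SCC15, CDH5 was not listed and the sum was between 154 and 174 with DMSO and between 63.8 and 77.1 with squamocin. Of 3 leukocyte markers, CD3E and CD14 reached a mean of 10 in both lines, while PTPRC was below 10 in SCC15 and not listed in SCC25. Their sum was between 498 and 540 with DMSO and between 319 and 501 with squamocin in SCC15, and between 328 and 420 and between 19.1 and 30.0 in SCC25. Of 3 fibroblast markers, all reached 10 in SCC15 and COL1A1 alone did in SCC25, with sums between 692 and 770 with DMSO and between 469 and 475 with squamocin in SCC15, and between 557 and 595 and between 881 and 1040 in SCC25. The part of these shifts in the results was not tested.

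With the authors' scaling, more initiation factor mRNAs rose than fell with squamocin in SCC15, while rises and falls were about equally frequent in SCC25. In SCC15, 32 of the 49 members tested were higher with squamocin and 4 were lower, against 30.9% higher and 30.0% lower among all 15902 genes tested (33 and 8 members without squamocin replicate 3). In SCC25, 20 members were higher and 18 lower, against 38.3% and 38.5% of 16539 genes. Members were called in either direction in 73.5% of cases in SCC15, where 61.0% of genes were, and in 77.6% in SCC25, close to the 76.8% of all genes. A member was called when limma, run on log2-transformed normalized counts (plus 1), gave an adjusted p below 0.05, two-sided, over all genes with a mean of at least 10. EIF4EBP3, a minor 4E-binding protein, fell below that mean in both lines, with 2.56 to 12.7 normalized counts in SCC15 libraries and 0.885 to 8.9 in SCC25 libraries, and was not tested. The median log2 fold change of the members tested was 0.58 in SCC15 and 0.037 in SCC25, where that of all genes was 0.012 and -0.015.

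The authors' size factors leave the total of normalized counts higher with squamocin than with DMSO, by 0.43 on the log2 scale in SCC15 and 0.21 in SCC25 (medians of each group). With libraries scaled to equal totals, log2 fold changes moved down by 0.49 in SCC15 and 0.21 in SCC25 at the median gene. On that scale 18 members were higher and 14 lower in SCC15 (background 14.8% and 50.5%), and 9 were higher and 27 lower in SCC25 (background 30.4% and 47.4%). The share of members called in either direction in SCC15 was then 65.3%, the same as among all genes. The median member still lay above the median gene in SCC15, by 0.57 with the authors' factors and 0.56 with equal totals, and close to it in SCC25, by 0.052 and 0.05. Fold changes below use the authors' factors. In bulk RNA, a change in every cell and a change in the share of cells that express a gene cannot be told apart.

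**Figure D1:**
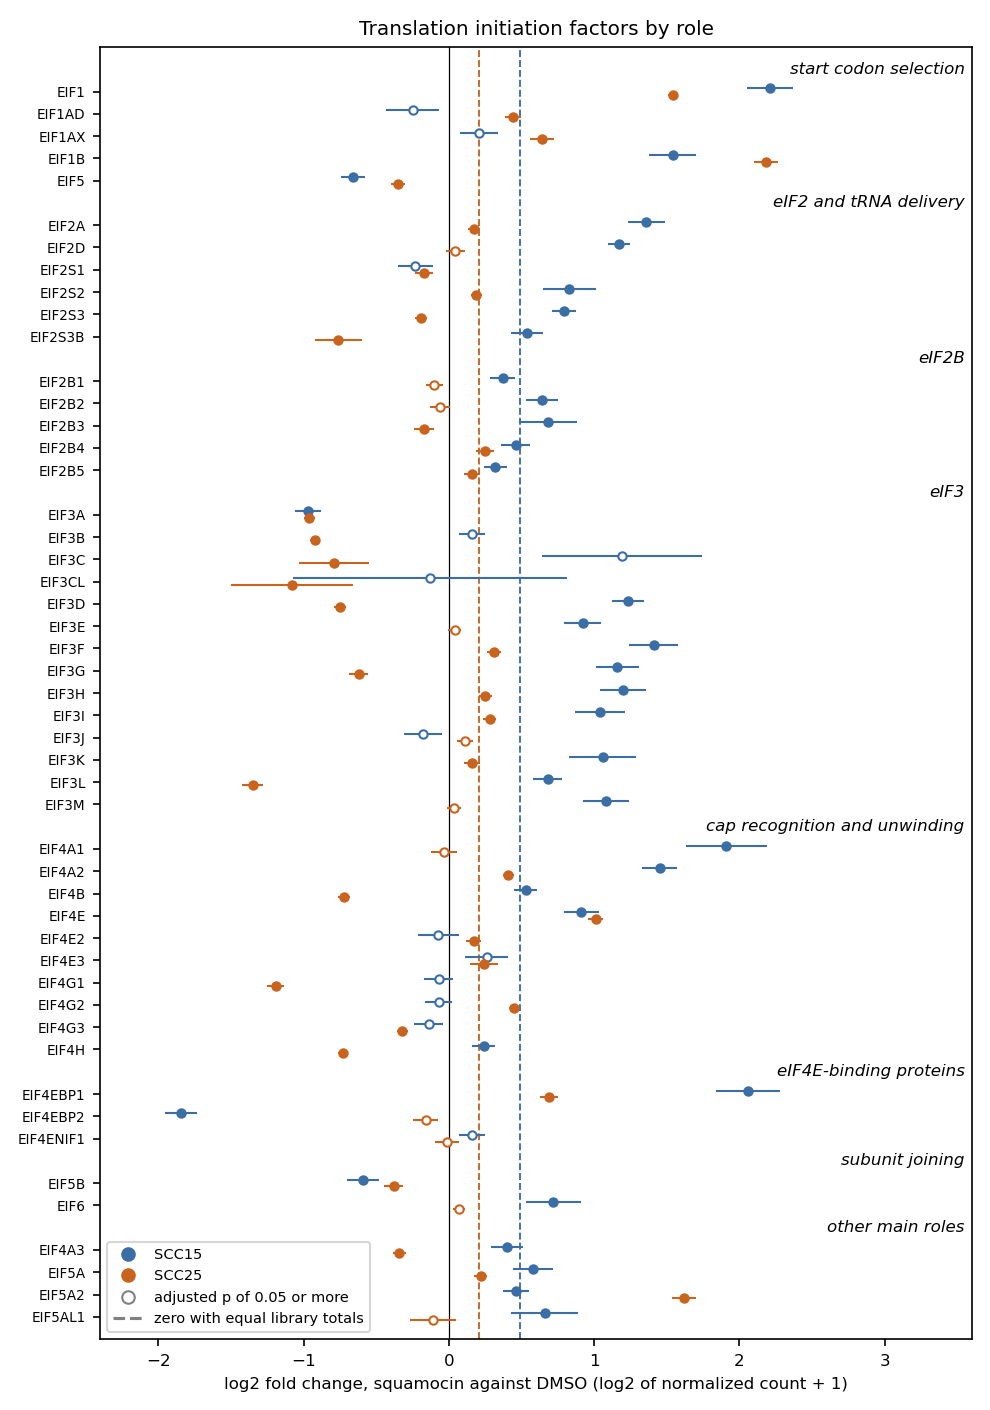
Log2 fold change (squamocin against DMSO, x axis) of the 49 members tested, grouped by role, in SCC15 (blue) and SCC25 (orange), with standard errors (SE) from limma as bars. Open points have an adjusted p of 0.05 or more, and dashed lines mark where 0 would lie for each line with equal library totals. Most SCC15 points of the eIF3 group lie near 1, whereas the SCC25 points of that group run from -1.35 to 0.31.

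Among members, 15 were higher in both lines, where 22.1% of the 14454 genes tested in both were, and 3 were lower in both (EIF3A, EIF5 and EIF5B), where 18.6% of genes were. Another 9 were higher in SCC15 and lower in SCC25, a pattern found in 5.44% of genes. Of these 9, EIF4H lost its SCC15 call with edgeR, TMM factors, the replicate block and all genes above 0. That call was also lost with any single SCC15 library left out except squamocin replicate 3. EIF4A3 lost its SCC15 call without any one of the DMSO libraries, and EIF2B3 without DMSO replicate 1 or 3. The opposite pattern, lower in SCC15 and higher in SCC25, was found by limma in 0 members and in 4.66% of genes (0 members also at an unadjusted p under 0.05, by edgeR and by DESeq2, and 3 members with equal totals). With equal totals, 5 of the 15 shared rises were called in both lines (EIF1, EIF1B, EIF4A2, EIF4E and EIF4EBP1), as were all 3 shared falls. Of the 9 opposite calls, EIF2S3, EIF3D and EIF3G were called in opposite directions on that scale too. The difference between responses, SCC15 minus SCC25, was tested by a limma contrast over all 12 libraries. The response was above that of SCC25 for 28 members (26.1% of genes) and below it for 6 (26.0% of genes), and 31 of these 34 differences were also called with equal totals.

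Start sites of the members were read from a set of RefSeq promoters (GRCh38.p14), which held 42 of the 50. The set lacked EIF2S2, EIF3A, EIF3CL, EIF3E, EIF3G, EIF3H, EIF3L and EIF4EBP1. These genes, most of them of eIF3, are therefore outside all counts of promoter letters. Many genes of the translation machinery begin with a C followed by a run of pyrimidines, a 5′ terminal oligopyrimidine (TOP) start, which ties their translation to mTORC1. A start with C and 4 pyrimidines was present in 10 of the 42 members and in 4.60% of 15843 protein-coding promoters. The response differed between the lines in all 10, and the starts of 6 of them are shown as examples. The 20 bases before the start are in lower case, and the first 5 bases of the transcript are in capitals.
EIF3D, chr22:36529162-36529186, minus strand: ccgctgcgcgcgcatgtttcCTCTT
EIF3F, chr11:7987317-7987341, plus strand: gtcatttccgcttccgcctcCTTCT
EIF2A, chr3:150546767-150546791, plus strand: aactctcacccgagcggtttCTCTT
EIF2D, chr1:206612461-206612485, minus strand: gccctggtttccagccgggcCCTTT
EIF4A2, chr3:186783557-186783581, plus strand: gggtggttgggcgccgctgtCTTTT
EIF4B, chr12:53006436-53006460, plus strand: cgtgattgcctcatccgggtCTTTT
Members without such a start that the results also turn on are EIF1 and EIF4G1, shown on the same scale for comparison.
EIF1, chr17:41688865-41688889, plus strand: aacacaggcaccgcccctctGCCCC
EIF4G1, chr3:184314586-184314610, plus strand: cgggatctgtgcggggagccGGAAA
RefSeq gives 1 start per gene, and the start used in these cells was not measured.

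The 10 members with a C and 4 pyrimidines at the start were EIF2A, EIF2D, EIF2S3, EIF2S3B, EIF3D, EIF3F, EIF3K, EIF3M, EIF4A2 and EIF4B. All 10 were called higher with squamocin in SCC15, with log2 fold changes from 0.53 to 1.45, and 8 were with equal totals. Among all genes, 30.9% were called higher and 30.0% lower in SCC15, and 14.8% and 50.5% with equal totals. Among the 31 other tested members with a promoter, 16 were called higher and 3 lower in SCC15, with a median of 0.32 against 1.13 for the 10, and with equal totals 5 were higher and 13 lower. In SCC25, 4 of the 10 were higher and 4 lower, with a median of 0.041. With equal totals, 1 of the 10 was higher there and 6 were lower. Among the 31 others, 13 were higher and 10 lower in SCC25, with a median of -0.013 (7 and 16 with equal totals). Of all genes in SCC25, 38.3% were higher and 38.5% lower (30.4% and 47.4% with equal totals). The SCC15 response was above the SCC25 response in all 10, with either scaling, and in 12 of the 31. Over all genes it was called above in 26.1% with the authors' factors. The start letters were examined after the fold changes had been seen, so these counts are a description and carry no test. Without squamocin replicate 3, the 10 remained higher in SCC15, while 17 of the 31 were higher and 7 lower.

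**Figure D2:**
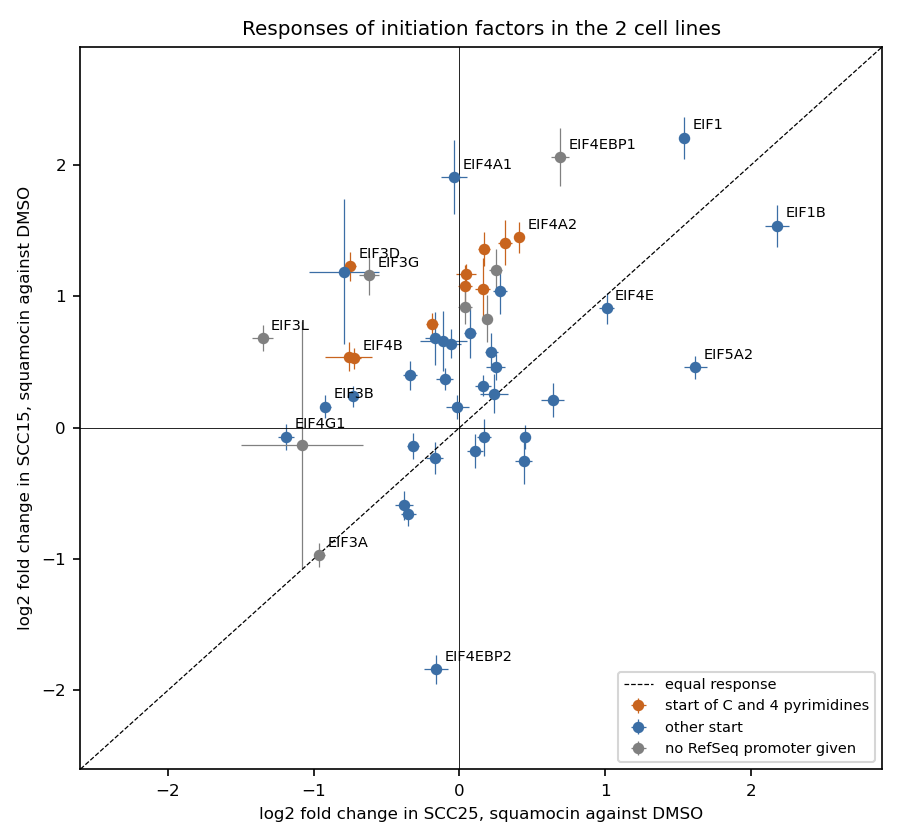
Log2 fold change in SCC15 (y axis) against that in SCC25 (x axis) for the 49 members tested, with standard errors as bars; orange marks a transcript start of C and 4 pyrimidines, blue another start and grey no RefSeq promoter given. The dashed line marks equal responses, and all 10 orange points lie above it, while EIF4EBP2, EIF5A2 and EIF1B lie below it.

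The letters CACGTG, an E-box of the kind that MYC with MAX and related factors can bind, stood within 250 bases before the start in 11 of the 42 members and in 7.84% of protein-coding promoters (the motif reads the same on both strands). Promoters of 4 members in which it lies within 80 bases of the start are shown because their genes moved in different directions. The 80 bases before the start are given, with the E-box in capitals.
EIF1B, chr3:40309627-40309706, plus strand: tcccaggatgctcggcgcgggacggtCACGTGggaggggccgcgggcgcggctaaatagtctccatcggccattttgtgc
EIF4E, chr4:98929134-98929213, minus strand: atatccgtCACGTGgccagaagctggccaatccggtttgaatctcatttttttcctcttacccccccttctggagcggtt
EIF4B, chr12:53006376-53006455, plus strand: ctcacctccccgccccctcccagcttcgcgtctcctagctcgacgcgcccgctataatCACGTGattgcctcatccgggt
EIF4G1, chr3:184314526-184314605, plus strand: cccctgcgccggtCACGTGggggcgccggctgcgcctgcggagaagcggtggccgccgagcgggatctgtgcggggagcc
Of the 10 tested members with this motif, 9 were higher in SCC15 and EIF4G1 was not called there, against 17 higher and 3 lower of the 31 tested members whose promoter lacks it (all genes, 30.9% and 30.0%). With equal totals 4 of the 10 were higher and 1 lower, against 9 and 12 of the 31 (all genes, 14.8% and 50.5%). In SCC25, 5 of the 10 were higher and 5 lower, against 12 and 9 of the 31 (all genes, 38.3% and 38.5%). With equal totals these counts in SCC25 were 3 and 5, against 5 and 17 of the 31 (all genes, 30.4% and 47.4%). EIF1B and EIF4E rose in both lines, while EIF4B and EIF4G1 fell in SCC25. No match was found for TGATGCAA, an amino acid response element, or TGACGTCA, the cAMP response element, on either strand of the same 42 windows. These letters are in 0.587% and 2.32% of protein-coding promoters. CCAAT on either strand was in 16 of the 42 and in 34.5% of protein-coding promoters. A match is a description of letters and was not tested for binding.

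EIF1 and its close relative EIF1B rose strongly in both lines. eIF1 keeps the scanning ribosome open until a start codon in a good context is met, and EIF1B encodes a near relative of it. Normalized counts of EIF1 (ENSG00000173812, chromosome 17, 41688885 to 41692668, GRCh38) in replicates 1, 2 and 3 of SCC15 were 4301, 4367 and 4320 with DMSO and 17367, 17691 and 26239 with squamocin. In SCC25, they were 8879, 8886 and 9081 with DMSO and 25580, 26509 and 25896 with squamocin. The treatments did not overlap in either line, and squamocin replicate 3 of SCC15 lay above its group. The log2 fold change was 2.21 ± 0.16 (SE, adjusted p = 5.52e-05) in SCC15, 2.02 without squamocin replicate 3 (adjusted p = 1.69e-19), and 1.54 ± 0.035 (SE, adjusted p = 1.66e-12) in SCC25, and the responses differed by 0.67 ± 0.18 (SE, adjusted p = 0.00654). Per kilobase of transcript, EIF1 went from 1852 to 8739 normalized counts in SCC15 and from 3827 to 11119 in SCC25, where it then had the highest level per kilobase of the 50 members.

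EIF1B (ENSG00000114784, chromosome 3, 40309684 to 40312424) had 438, 524 and 475 with DMSO and 1226, 1220 and 1785 with squamocin in SCC15. Its normalized counts in SCC25 were 191, 215 and 176 with DMSO and 874, 882 and 880 with squamocin. Treated and control libraries were again fully apart. On the log2 scale, the change was 1.54 ± 0.16 (SE, adjusted p = 0.000233) in SCC15 and 2.18 ± 0.082 (SE, adjusted p = 1.46e-10) in SCC25, a larger rise in SCC25, with a difference of -0.64 ± 0.19 (SE, adjusted p = 0.0129). Relative to EIF1 in the same library, EIF1B was thus lower with squamocin in SCC15 and higher in SCC25.

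EIF5, which triggers GTP hydrolysis on eIF2 at the start codon, was lower in both lines. Its normalized counts were 3977, 4324 and 3958 with DMSO and 2722, 2512 and 2500 with squamocin in SCC15, and no library of one treatment reached the range of the other. In the limma fit, the log2 fold change was -0.66 ± 0.085 (SE, adjusted p = 0.000527) in SCC15 and -0.35 ± 0.051 (SE, adjusted p = 4.16e-05) in SCC25. EIF1AX, which encodes eIF1A, was called higher in SCC25 only, at 0.64, with 0.21 in SCC15 (-0.29 and called lower with equal totals). The difference of -0.42 ± 0.17 (SE, adjusted p = 0.0532) missed the threshold, but was called with equal totals, at -0.71. EIF1AD, named for its eIF1A-like domain, was also called higher in SCC25, at 0.44. In SCC15 its value was -0.25, but it was called lower without squamocin replicate 3, at -0.47 (adjusted p = 1.73e-05), and with equal totals, at -0.75.

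The genes for eIF2 did not move as a unit. EIF2S1 encodes the α subunit, the one phosphorylated under stress, and had 2137, 2210 and 2134 with DMSO and 1614, 1758 and 2205 with squamocin in SCC15. These ranges overlapped through squamocin replicate 3. The change estimated by limma was -0.23 ± 0.12 (SE, adjusted p = 0.14), and -0.36 without squamocin replicate 3 (adjusted p = 2.01e-06). With equal totals it was called lower, at -0.73. In SCC25, EIF2S1 had 2137, 2013 and 2130 with DMSO and 1900, 1999 and 1687 with squamocin, without overlap, and a log2 fold change of -0.17 ± 0.061 (SE, adjusted p = 0.0214), or -0.10 without its squamocin replicate 3. The difference between the lines was -0.057 ± 0.15 (SE, adjusted p = 0.761), which does not show that they responded alike. With equal totals the difference was -0.35 and was called.

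EIF2S2, which encodes the β subunit, was higher in both lines, by 0.83 in SCC15 and 0.19 in SCC25 on the log2 scale, and with equal totals by 0.33 in SCC15 and -0.021 in SCC25, the last of which was not called. EIF2S3, the γ subunit gene that binds the tRNA and GTP, went in opposite directions. It had 5783, 5864 and 5611 with DMSO and 10223, 9770 and 9928 with squamocin in SCC15, and 6913, 6661 and 6919 with DMSO and 5976, 6188 and 5786 with squamocin in SCC25. All squamocin libraries were above the DMSO libraries in SCC15 and below them in SCC25. Squamocin against DMSO gave a log2 fold change of 0.79 ± 0.083 (SE, adjusted p = 0.000222) in SCC15 and -0.19 ± 0.04 (SE, adjusted p = 0.000785) in SCC25, with a difference of 0.99 ± 0.087 (SE, adjusted p = 1.66e-06).

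EIF2S3B, a retrocopy on chromosome 12, followed EIF2S3 in sign. Its normalized counts were 114, 123 and 123 with DMSO and 180, 177 and 168 with squamocin in SCC15, and 140, 178 and 143 with DMSO and 73.7, 110 and 89.9 with squamocin in SCC25. Treatments did not overlap, and the log2 fold change was 0.54 in SCC15 (0.042 and not called with equal totals) and -0.76 in SCC25. Its coding sequence is close to that of EIF2S3, and how reads that fit both were counted is not given in the sources used here, so its counts are uncertain. EIF2A and EIF2D, which can deliver tRNA to the ribosome without eIF2, rose in SCC15 by 1.36 and 1.17. In SCC25, EIF2A rose by 0.17 (-0.035 with equal totals) and EIF2D had 0.045 (adjusted p = 0.554), called lower with equal totals, at -0.16. Their responses differed between the lines by 1.19 ± 0.14 (SE, adjusted p = 1.66e-05) and 1.13 ± 0.095 (SE, adjusted p = 1.15e-06).

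All 5 eIF2B subunit genes were called higher in SCC15, where 30.9% of all genes were, with log2 fold changes from 0.32 to 0.68. With equal totals the values in SCC15 ran from -0.18 to 0.18, none past the threshold. In SCC25, EIF2B4 and EIF2B5 were higher, EIF2B3 was lower (all genes, 38.3% and 38.5%), and the values ran from -0.17 to 0.25. With equal totals EIF2B4 and EIF2B5 were not called there, at 0.047 and -0.053, while EIF2B1, EIF2B2 and EIF2B3 were called lower (all genes, 47.4%). EIF2B5 encodes the catalytic ε subunit and had 990, 925 and 932 with DMSO and 1142, 1188 and 1217 with squamocin in SCC15. In SCC25, the counts were 895, 879 and 919 with DMSO and 971, 990 and 1038 with squamocin. The treatments did not overlap in either line, although the shifts were small. The log2 change of EIF2B5 came to 0.32 ± 0.08 (SE, adjusted p = 0.0106) in SCC15 and 0.16 ± 0.054 (SE, adjusted p = 0.0189) in SCC25. EIF2B3, the γ subunit gene, had 757, 874 and 765 with DMSO and 1026, 1154 and 1766 with squamocin in SCC15, and 478, 493 and 484 with DMSO and 414, 427 and 449 with squamocin in SCC25. Squamocin libraries were all higher than DMSO in SCC15 and all lower in SCC25. The log2 fold change was 0.68 ± 0.20 (SE, adjusted p = 0.0183), or 0.45 without squamocin replicate 3, and -0.17 ± 0.068 (SE, adjusted p = 0.0328), and the difference was 0.86 ± 0.22 (SE, adjusted p = 0.00493).

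Most genes of the eIF3 complex rose in SCC15, and those called in SCC25 were divided between rises and falls with the authors' scaling but not with equal totals. Leaving out EIF3C and EIF3CL, which share their sequence, 9 of 12 subunit genes were higher and 1 was lower with squamocin in SCC15. In SCC25, 4 were higher and 5 were lower, where 38.3% and 38.5% of all genes were (30.9% and 30.0% in SCC15). Without squamocin replicate 3, 9 were higher and 2 lower in SCC15. With equal totals 8 were higher and 3 lower in SCC15, while in SCC25 the 4 rises were not called and 7 genes were lower. The SCC15 response was above the SCC25 response in 10 of the 12. With all 14 genes the median log2 fold change was 1.05 in SCC15 and -0.29 in SCC25, and with equal totals it was 0.55 and -0.50.

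EIF3A, the largest subunit and the core of the scaffold, fell in both lines. Its normalized counts (ENSG00000107581, chromosome 10, 119033670 to 119080823) were 4681, 4657 and 4569 with DMSO and 2570, 2373 and 2167 with squamocin in SCC15. They were 7603, 7563 and 7513 with DMSO and 4021, 3915 and 3736 with squamocin in SCC25. Every squamocin library was below every DMSO library in both lines, to about the same extent. On the log2 scale, the change was -0.97 ± 0.091 (SE, adjusted p = 0.000135) in SCC15 and -0.96 ± 0.04 (SE, adjusted p = 3.48e-10) in SCC25, and their difference was -0.012 ± 0.099 (SE, adjusted p = 0.928), which was not called and does not show that the falls were equal. EIF3B, the other core subunit, had 8166, 8254 and 8144 with DMSO and 4290, 4343 and 4386 with squamocin in SCC25, a log2 fold change of -0.92 ± 0.036 (SE, adjusted p = 2.01e-10). In SCC15 it had 2864, 3045 and 3001 with DMSO and 3163, 3175 and 3611 with squamocin, where the treatments did not overlap and the value of 0.16 ± 0.089 (SE, adjusted p = 0.161) missed the threshold, while with equal totals it was called lower, at -0.34. The lines differed in EIF3B by 1.07 ± 0.094 (SE, adjusted p = 1.59e-06).

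EIF3D, EIF3G and EIF3L rose in SCC15 and fell in SCC25. EIF3D, which can itself contact the cap on some mRNAs, had 2785, 2830 and 2716 with DMSO and 5819, 6299 and 7585 with squamocin in SCC15 (ENSG00000100353, chromosome 22, 36510850 to 36529436). Its SCC25 values were 5485, 5552 and 5454 with DMSO and 3272, 3169 and 3363 with squamocin. No overlap was present in either line, and the directions were opposite. In the limma fit, the log2 fold change was 1.23 ± 0.11 (SE, adjusted p = 0.000126) in SCC15, 1.12 without squamocin replicate 3 (adjusted p = 1.25e-14), and -0.75 ± 0.04 (SE, adjusted p = 2.8e-09) in SCC25, with a difference of 1.98 ± 0.12 (SE, adjusted p = 9.7e-08). With equal totals EIF3D was still 0.73 in SCC15 and -0.96 in SCC25, both called.

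EIF3G, an RNA-binding subunit, had 2096, 2045 and 2087 with DMSO and 4037, 4165 and 5961 with squamocin in SCC15. In SCC25, normalized counts of EIF3G were 2748, 2705 and 2580 with DMSO and 1712, 1590 and 1953 with squamocin. The treated libraries lay outside the control range in both lines, on opposite sides. The change estimated by limma was 1.16 ± 0.15 (SE, adjusted p = 0.000574) in SCC15 and -0.62 ± 0.066 (SE, adjusted p = 2.47e-06) in SCC25, and the lines differed by 1.78 ± 0.18 (SE, adjusted p = 4.6e-06). EIF3L, a peripheral subunit, had 1524, 1675 and 1605 with DMSO and 2675, 2757 and 2288 with squamocin in SCC15, and 4927, 4902 and 4807 with DMSO and 1741, 1825 and 2212 with squamocin in SCC25. The fall in SCC25 was the largest of any member there, at -1.35 ± 0.072 (SE, adjusted p = 3.17e-09), against 0.68 ± 0.099 (SE, adjusted p = 0.000929) in SCC15, where it was 0.18 and not called with equal totals. In the annotation, 51.8% of the exonic bases of EIF3L are also exonic in another gene, 41.1% in 1 gene on the same strand, so its counts depend on how such reads were assigned.

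Subunits E, F, H, I, K and M rose in SCC15 and moved little in SCC25. Their log2 fold changes in SCC15 ran from 0.92 for EIF3E to 1.41 for EIF3F, all called. In SCC25, EIF3F, EIF3H, EIF3I and EIF3K were called higher, at 0.31, 0.25, 0.28 and 0.16 (with equal totals 0.098, 0.044, 0.073 and -0.047, none past the threshold). EIF3E had 0.039 (adjusted p = 0.461) and EIF3M 0.037 (adjusted p = 0.488) in SCC25, and both were called lower there with equal totals, at -0.17 and -0.17. For EIF3K in SCC15, squamocin replicates had 2174, 2259 and 4146 normalized counts against 1298 to 1319 with DMSO, and the log2 fold change was 1.06 with and 0.76 without replicate 3. EIF3J, a loosely bound subunit that helps to release the ribosome, was called in neither line, at -0.18 in SCC15 and 0.11 in SCC25, but was lower in SCC15 without squamocin replicate 3, at -0.31 (adjusted p = 0.000122), and with equal totals, at -0.67. In SCC25 without its own squamocin replicate 3, EIF3J and EIF3E were called higher, at 0.14 and 0.084.

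EIF3C and EIF3CL are near-identical copies on chromosome 16, and reads were split between them unevenly from library to library. EIF3C had 819, 233 and 225 with DMSO and 1308, 840 and 472 with squamocin in SCC15, whereas EIF3CL had 33.3, 494 and 37.5 with DMSO and 61.4, 94.6 and 83.4 with squamocin. In SCC25, EIF3C had 911, 517 and 1078 with DMSO and 508, 577 and 333 with squamocin, and EIF3CL had 152, 412 and 207 with DMSO and 87.7, 63.4 and 242 with squamocin. Replicates of 1 group thus differed by over 10-fold, and both genes are reported as uncertain. EIF3C was not called in SCC15, at 1.19, but was called higher without squamocin replicate 3, at 1.58 (adjusted p = 0.000258). Both genes were called lower in SCC25, EIF3C at -0.79 (adjusted p = 0.00866) and EIF3CL at -1.08, although the treatments overlapped for each. Without squamocin replicate 3 of that line, EIF3C had -0.56 and EIF3CL had -1.64. The sum of the pair in SCC15 was 614 ± 311 (SD, n = 3) under DMSO against 953 ± 407 (SD, n = 3) under squamocin, where the treatments overlapped. For SCC25 the sum was 1092 ± 180 (SD, n = 3) under DMSO against 604 ± 33.4 (SD, n = 3) under squamocin, without overlap.

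**Figure D3:**
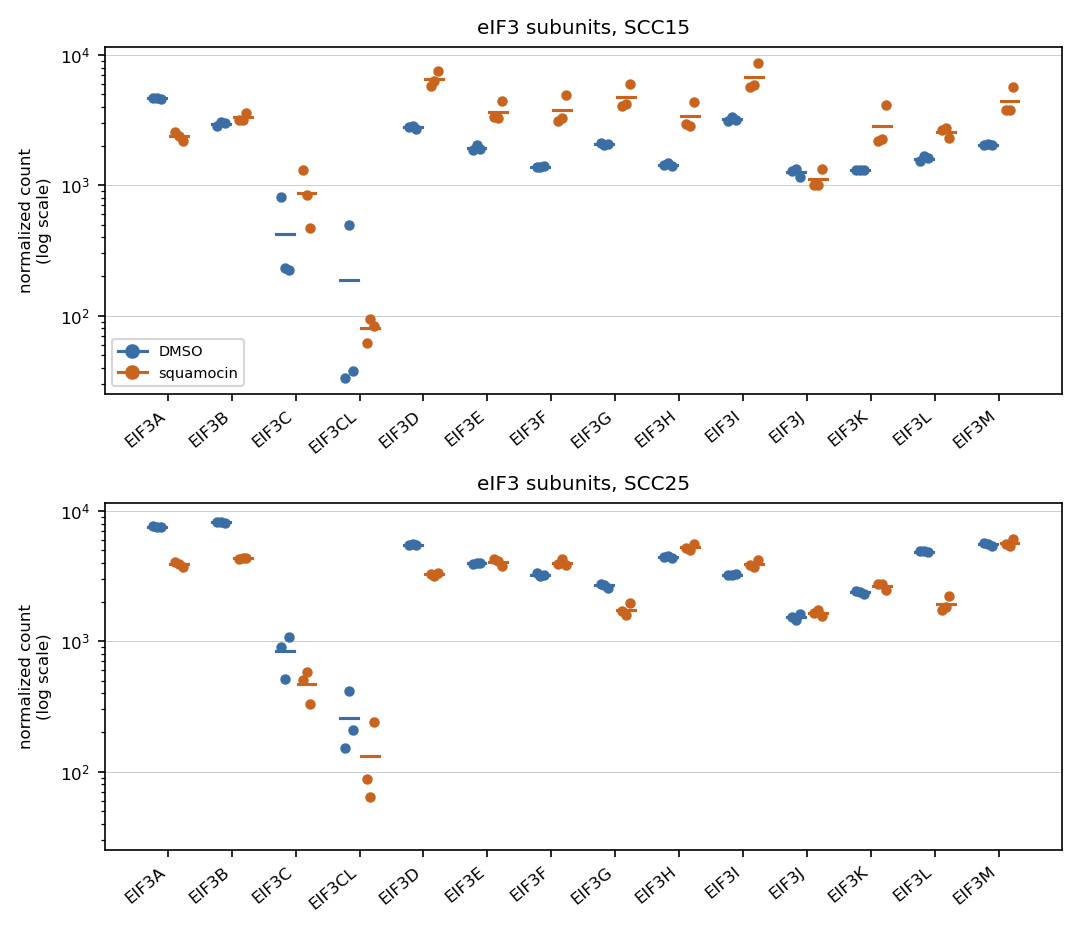
Normalized counts (log axis) of the 14 eIF3 subunit genes in each library of SCC15 (top) and SCC25 (bottom), with DMSO in blue, squamocin in orange and horizontal lines at the means. EIF3A is lower with squamocin in both panels, EIF3D, EIF3G and EIF3L move up in SCC15 and down in SCC25, and EIF3C and EIF3CL scatter widely.

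Levels of the eIF3 subunits can be set side by side only with care, since each table was normalized on its own. The median of the log2 ratio of SCC25 to SCC15 over the 12 subunits without EIF3C and EIF3CL was 1.01 with DMSO and 0.12 with squamocin. Over all genes tested in both lines, it was 0.086 and 0.062. These ratios were not tested, and their spread over the 12 subunits did not narrow, with an SD of 0.54 with DMSO and 0.70 with squamocin.

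Cap recognition factors also split. EIF4E, the cap-binding protein, rose in both lines. In SCC15 it had 831, 974 and 884 with DMSO and 1550, 1592 and 1945 with squamocin (ENSG00000151247, chromosome 4, 98871684 to 98930637). In SCC25, EIF4E had 1431, 1324 and 1402 with DMSO and 2740, 2952 and 2691 with squamocin. The treatments were apart in both lines. Squamocin against DMSO gave a log2 fold change of 0.91 ± 0.12 (SE, adjusted p = 0.000507) in SCC15 and 1.01 ± 0.052 (SE, adjusted p = 2.06e-09) in SCC25, with a difference of -0.097 ± 0.13 (SE, adjusted p = 0.561) that was not called. With equal totals the difference of EIF4E was -0.39 and was called. EIF4E2, a cap-binding relative that represses translation, and EIF4E3 were called higher in SCC25, at 0.17 and 0.24, and not with equal totals, at -0.036 and 0.030. In SCC15, EIF4E2 had -0.073 and was called lower without squamocin replicate 3, at -0.23 (adjusted p = 0.00239), and with equal totals, at -0.57. Neither response was called as different between the lines with the authors' factors. With equal totals the difference of EIF4E2 was called, at -0.53, and that of EIF4E3 was not.

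EIF4G1, the main scaffold of eIF4F, fell in SCC25, and in SCC15 it was called lower only with equal totals. It had 10026, 10264 and 10173 with DMSO and 4339, 4113 and 4956 with squamocin in SCC25 (ENSG00000114867, chromosome 3, 184314495 to 184335358) and 9755, 9556 and 9759 with DMSO and 9820, 9757 and 8228 with squamocin in SCC15. Squamocin libraries were all under DMSO in SCC25, while in SCC15 the ranges overlapped. The log2 change of EIF4G1 came to -1.19 ± 0.058 (SE, adjusted p = 1.4e-09) in SCC25 and -0.069 ± 0.10 (SE, adjusted p = 0.585) in SCC15, and the lines differed by 1.12 ± 0.12 (SE, adjusted p = 1.07e-05). EIF4G2 lacks the eIF4E-binding region and supports cap-independent initiation. It had 8630, 8365 and 8556 with DMSO and 11697, 11552 and 11683 with squamocin in SCC25, a rise of 0.45 ± 0.035 (SE, adjusted p = 1.1e-07). In SCC15, EIF4G2 had 13906, 14808 and 14079 with DMSO and 13661, 13638 and 13444 with squamocin, just apart, and a value of -0.07 ± 0.092 (SE, adjusted p = 0.528). The lines differed in EIF4G2 by -0.52 ± 0.091 (SE, adjusted p = 0.000373).

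EIF4G3, a second scaffold, was lower in SCC25, where it had 3391, 3517 and 3399 with DMSO and 2777, 2765 and 2690 with squamocin. In SCC15 it had 3326, 3420 and 3473 with DMSO and 3192, 3336 and 2757 with squamocin, with overlap. The log2 fold change was -0.32 ± 0.04 (SE, adjusted p = 9.87e-06) in SCC25 and -0.14 ± 0.097 (SE, adjusted p = 0.233) in SCC15, and the difference of 0.18 ± 0.10 (SE, adjusted p = 0.157) was not called. With equal totals all 3 scaffolds were called lower in SCC15, at -0.57, -0.57 and -0.64, so that their position in SCC15 depends on the scaling.

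The helicase genes rose mainly in SCC15. EIF4A2 had 6910, 7140 and 7047 with DMSO and 17713, 17895 and 22376 with squamocin in SCC15 and 12045, 12061 and 11967 with DMSO and 15604, 16133 and 16140 with squamocin in SCC25. Squamocin was above DMSO in every library, with a log2 fold change of 1.45 ± 0.12 (SE, adjusted p = 7.92e-05) in SCC15 and 0.41 ± 0.035 (SE, adjusted p = 2.77e-07) in SCC25, and a difference of 1.04 ± 0.13 (SE, adjusted p = 2.1e-05). EIF4A1 had 184, 201 and 215 with DMSO and 1073, 849 and 468 with squamocin in SCC15, against 707, 808 and 731 with DMSO and 651, 711 and 838 with squamocin in SCC25. It was higher in SCC15, at 1.91 ± 0.28 (SE, adjusted p = 0.000929), with a wide spread between squamocin libraries, and had -0.035 ± 0.088 (SE, adjusted p = 0.728) in SCC25, where it was called lower with equal totals, at -0.24. In the annotation 47.4% of the exonic bases of EIF4A1 are shared with other genes, 42.1% with 1 gene on the same strand, so the level and change of EIF4A1 depend on how reads in shared exons were counted. Its helpers EIF4B and EIF4H, which stimulate the helicase, had opposite signs in the lines.

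EIF4B had 4294, 4303 and 4368 with DMSO and 6449, 6092 and 6249 with squamocin in SCC15, and 13791, 13902 and 13542 with DMSO and 8537, 8619 and 7855 with squamocin in SCC25. EIF4H had 6411, 6403 and 6492 with DMSO and 7731, 7720 and 7402 with squamocin in SCC15, and 12115, 11858 and 11749 with DMSO and 7304, 7207 and 7061 with squamocin in SCC25. Neither gene had overlapping treatments in any line, and both were higher in SCC15 and lower in SCC25. Log2 fold changes were 0.53 ± 0.079 (SE, adjusted p = 0.000995) and -0.72 ± 0.042 (SE, adjusted p = 7.36e-09) for EIF4B, and 0.24 ± 0.081 (SE, adjusted p = 0.0332) and -0.73 ± 0.036 (SE, adjusted p = 1.55e-09) for EIF4H. With equal totals the SCC15 values were 0.037 for EIF4B and -0.25 for EIF4H, neither of them called, while the falls in SCC25 and the differences between the lines (1.26 ± 0.091 (SE, adjusted p = 3.2e-07) and 0.97 ± 0.085 (SE, adjusted p = 1.55e-06) with the authors' factors) were called on both scales.

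**Figure D4:**
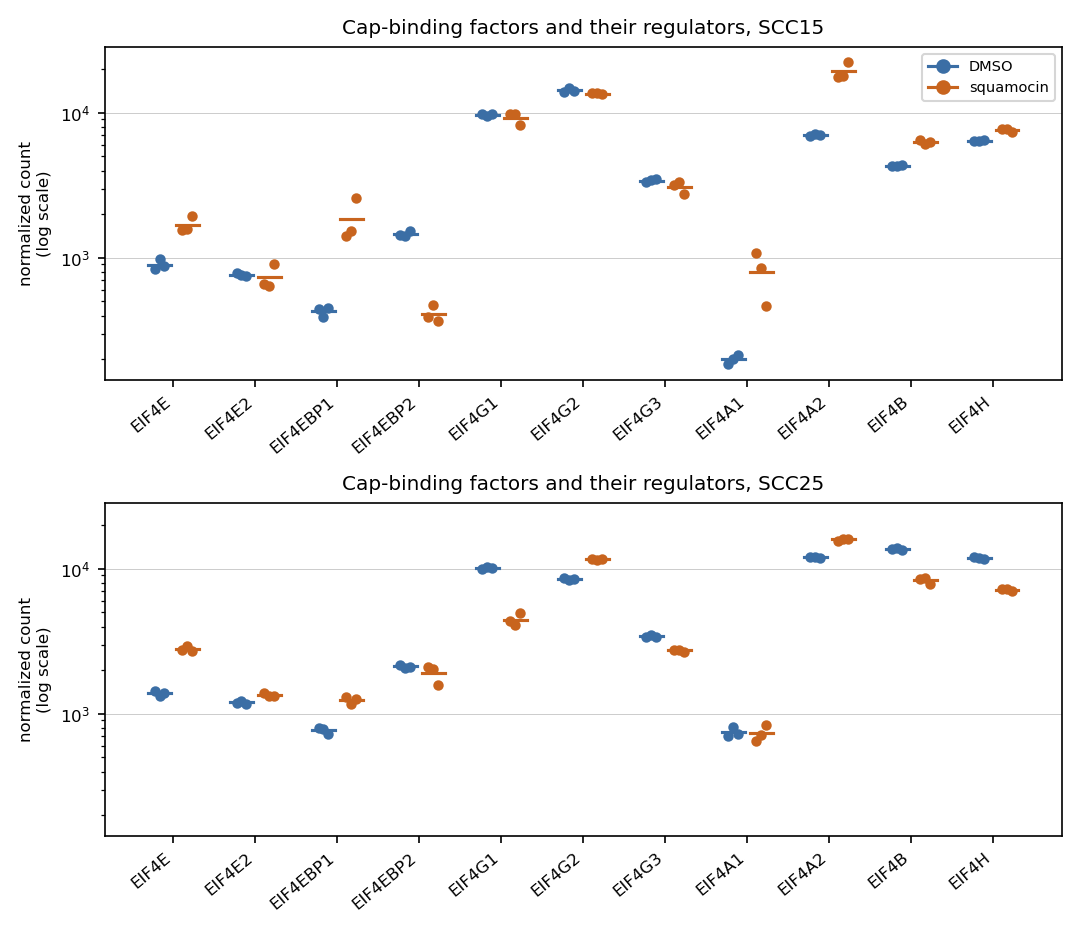
Normalized counts (log axis) of the cap-binding factors, the eIF4E-binding proteins and their partners in each library of SCC15 (top) and SCC25 (bottom), with DMSO in blue, squamocin in orange and lines at the means. EIF4E and EIF4EBP1 are higher with squamocin in both panels, EIF4EBP2 is lower in SCC15, and EIF4G1, EIF4B and EIF4H are lower in SCC25.

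The eIF4E-binding proteins moved apart from each other in SCC15. They bind eIF4E in place of eIF4G until mTORC1 phosphorylates them. EIF4EBP1 had 441, 391 and 448 with DMSO and 1414, 1539 and 2572 with squamocin in SCC15 (ENSG00000187840, chromosome 8, 38030341 to 38060365). In SCC25, it had 796, 787 and 729 with DMSO and 1307, 1167 and 1272 with squamocin. Both lines showed higher values in all squamocin libraries, and replicate 3 was the highest in SCC15. On the log2 scale, the change was 2.06 ± 0.22 (SE, adjusted p = 0.000224) in SCC15, 1.79 without squamocin replicate 3 (adjusted p = 1.14e-14), and 0.69 ± 0.062 (SE, adjusted p = 3.93e-07) in SCC25, with a difference of 1.36 ± 0.24 (SE, adjusted p = 0.000408).

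EIF4EBP2 had the largest fall of any member in SCC15, with counts of 1431, 1423 and 1534 with DMSO and 388, 474 and 366 with squamocin (ENSG00000148730, chromosome 10, 70404379 to 70428618). Its SCC25 counts were 2170, 2077 and 2118 with DMSO and 2096, 2043 and 1592 with squamocin. The groups were far apart in SCC15 and overlapped in SCC25. In the limma fit, the log2 fold change was -1.84 ± 0.11 (SE, adjusted p = 2.9e-05) in SCC15 and -0.16 ± 0.084 (SE, adjusted p = 0.0982) in SCC25, and the responses differed by -1.68 ± 0.16 (SE, adjusted p = 2.84e-06). With equal totals EIF4EBP2 was called lower in SCC25 too, at -0.37. EIF4ENIF1, the 4E-transporter that carries eIF4E into the nucleus, was called in neither line, at 0.16 and -0.013, but with equal totals was called lower in both, at -0.34 and -0.22.

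The factors of subunit joining had unlike responses. EIF5B, the GTPase that joins the large subunit, had 1682, 1853 and 1645 with DMSO and 1014, 1121 and 1311 with squamocin in SCC15 and 3290, 3229 and 3118 with DMSO and 2696, 2546 and 2204 with squamocin in SCC25. Squamocin was below DMSO throughout. The change estimated by limma was -0.59 ± 0.11 (SE, adjusted p = 0.00323) in SCC15 and -0.38 ± 0.064 (SE, adjusted p = 0.000161) in SCC25. EIF6, which keeps the large subunit from joining early, was higher in SCC15, at 0.72 ± 0.19 (SE, adjusted p = 0.0143) and at 0.48 without squamocin replicate 3, with squamocin values of 1840, 1990 and 3165 against 1307 to 1418. In SCC25, EIF6 had 0.07 (adjusted p = 0.14), and 0.083 without squamocin replicate 3 of that line, which was called. With equal totals EIF6 was not called in SCC15, at 0.22, and was called lower in SCC25, at -0.14.

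Other proteins that carry the name have their main roles elsewhere. EIF5A2, the second gene for eIF5A, a factor that carries the amino acid hypusine and helps elongation, had 380, 376 and 347 with DMSO and 1205, 1211 and 1000 with squamocin in SCC25. In SCC15 it had 936, 1020 and 911 with DMSO and 1280, 1263 and 1413 with squamocin. The treatments did not overlap in either line, and the shift was larger in SCC25. Squamocin against DMSO gave a log2 fold change of 1.62 ± 0.081 (SE, adjusted p = 1.64e-09) in SCC25 and 0.46 ± 0.09 (SE, adjusted p = 0.00337) in SCC15, with a difference of -1.16 ± 0.13 (SE, adjusted p = 1.01e-05), while with equal totals the SCC15 value was -0.033. EIF5A, the widely expressed gene, changed by 0.58 in SCC15 and 0.22 in SCC25, both called, and with equal totals by 0.079 and 0.0093, neither called. EIF5AL1, a copy of EIF5A whose reads may be shared with it, had 0.66 and -0.11, of which the first was called (0.16 and not called with equal totals).

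EIF4A3, a helicase of the exon junction complex, had 1883, 1827 and 1848 with DMSO and 2249, 2267 and 2878 with squamocin in SCC15, and 2782, 2869 and 2892 with DMSO and 2264, 2133 and 2347 with squamocin in SCC25. It was higher with squamocin in every library of SCC15 and lower in every library of SCC25. The log2 change of EIF4A3 came to 0.40 ± 0.11 (SE, adjusted p = 0.0166) and -0.34 ± 0.047 (SE, adjusted p = 2.35e-05), and the difference was 0.74 ± 0.12 (SE, adjusted p = 0.000283). With equal totals the SCC15 value was -0.096 and was not called.

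The most abundant members per kilobase of canonical transcript (GENCODE release 44) with DMSO were EIF5A, EIF4G2 and EIF4A2 in SCC15, at 4433, 3760 and 3729 normalized counts per kilobase. In SCC25, they were EIF5A, EIF4A2 and EIF4H, at 7552, 6376 and 4646. With squamocin, EIF4A2 and EIF1 led in SCC15, at 10248 and 8739, and EIF1 and EIF5A led in SCC25, at 11119 and 8789. EIF4EBP3 was the lowest in each group, at 6.12 to 15.9.

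Ratios of related factors within a library do not depend on its scaling. Each of 8 ratios was compared between treatments in both lines by an exact permutation test, two-sided, for which 3 against 3 libraries cannot give a p below 0.1. Of the 16 comparisons, 12 had no overlap between treatments, each with p = 0.1 in the exact test and 0.133 after adjustment over the 16. Ratios of other gene pairs were not computed, so the usual share without overlap is not known. Of single genes, 61.0% were called in SCC15 and 76.8% in SCC25. The log2 ratio of EIF4EBP2 to EIF4E fell by 2.76 in SCC15, from 0.78, 0.55 and 0.79 with DMSO to -1.99, -1.75 and -2.41 with squamocin. It fell by 1.17 in SCC25, from 0.60, 0.65 and 0.59 to -0.39, -0.53 and -0.76. EIF4EBP1 relative to EIF4E moved in opposite directions, by 1.14 in SCC15 and -0.32 in SCC25. EIF4E2 relative to EIF4E moved by -0.99 in SCC15 and -0.84 in SCC25.

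In SCC25, normalized counts of EIF4G2 went from just below those of EIF4G1 to above them. The log2 ratio was -0.22, -0.30 and -0.25 with DMSO and 1.43, 1.49 and 1.24 with squamocin, a shift of 1.64. These counts are not corrected for transcript length. Per kilobase, EIF4G2 was above EIF4G1 with DMSO too, at 2245 against 1879, and with squamocin at 3069 against 827. In SCC15 the ratio overlapped between treatments, with means of 0.56 and 0.56. EIF4G3 relative to EIF4G1 shifted by 0.86 in SCC25 and by -0.07 in SCC15, where it overlapped. EIF5A2 relative to EIF5A shifted by 1.41 in SCC25 and by -0.11 in SCC15, with overlap. EIF1B relative to EIF1 shifted by -0.67 in SCC15 and by 0.64 in SCC25, and EIF4A2 relative to EIF4A1 by -0.46 in SCC15, with overlap, and 0.44 in SCC25.

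**Figure D5:**
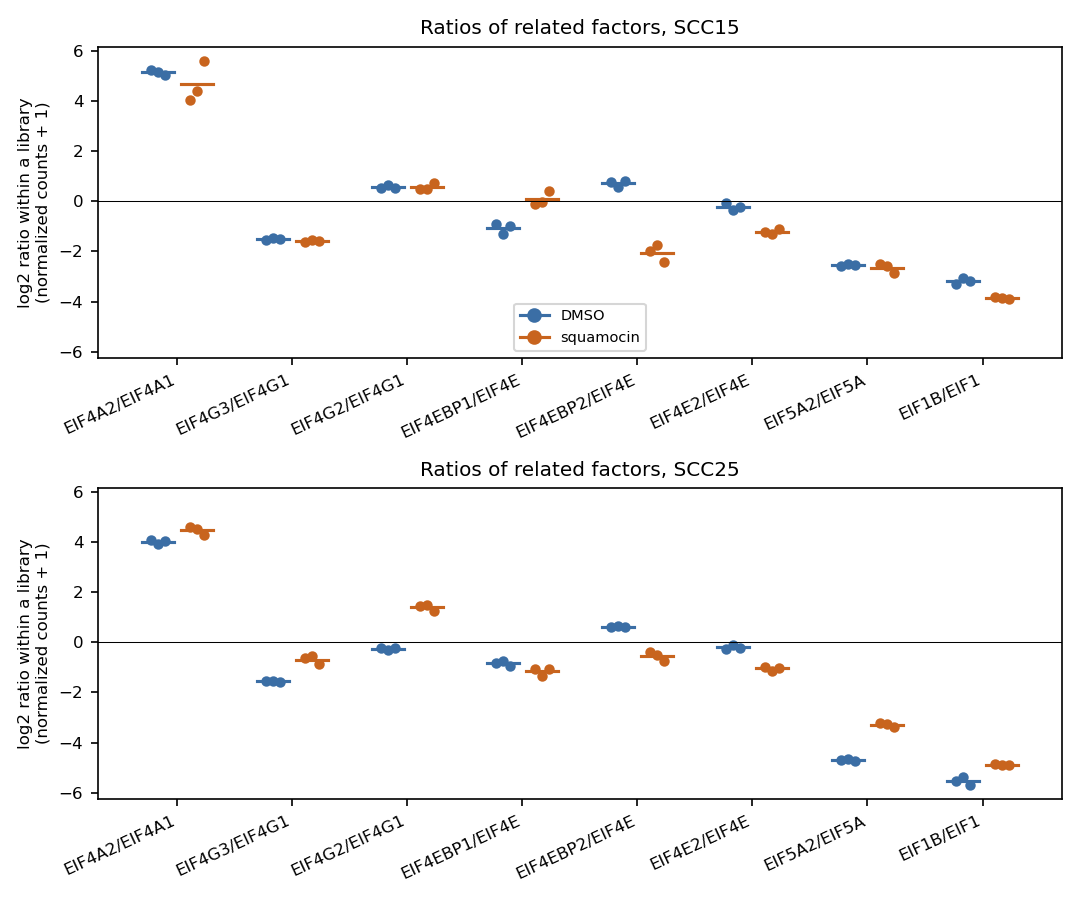
Log2 ratios of related factors within each library (y axis, normalized counts plus 1) in SCC15 (top) and SCC25 (bottom), with DMSO in blue, squamocin in orange and lines at the means. EIF4EBP2 and EIF4E2 fall relative to EIF4E in both panels, and EIF4G2 rises relative to EIF4G1 in the SCC25 panel.

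Genes around the initiation factors were counted from lists of related translation genes, to be read against the 30.9% higher and 30.0% lower of all genes in SCC15 and the 38.3% and 38.5% in SCC25. Of 9 genes for the eIF2 kinases and the phosphatase that reverses them, 4 were higher and 1 lower in SCC15, and 6 were higher and 2 lower in SCC25. PPP1R15A, the stress-induced subunit of that phosphatase, went from 2371 ± 76.3 (SD, n = 3) under DMSO to 26200 ± 2012 (SD, n = 3) normalized counts under squamocin in SCC15. The corresponding means in SCC25 were 3362 ± 88.8 (SD, n = 3) and 26384 ± 274 (SD, n = 3). The log2 fold change was 3.46 (SE 0.095, adjusted p = 3.04e-06) in SCC15 and 2.97 (SE 0.037, adjusted p = 1.15e-14) in SCC25. PPP1R15B, which encodes another regulatory subunit of that phosphatase, was higher as well, by 1.36 and 1.78. EIF2AK3, which encodes the endoplasmic reticulum kinase PERK, was higher in SCC25, at 1.04, with -0.18 in SCC15 (adjusted p = 0.232), called lower there with equal totals, at -0.68.

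Among 16 genes of the mTORC1 and MNK inputs to eIF4E, 6 were higher and 3 lower in SCC15, and 8 were higher and 5 lower of 15 tested in SCC25. DDIT4, an inhibitor of mTORC1 under stress, changed by 2.95 in SCC15 and 0.93 in SCC25, and RHEB, the GTPase that activates mTORC1, by 1.25 and 2.11. MKNK2 and SESN2 rose more than RHEB in SCC15, by 1.58 and 1.52. The 3 falls in SCC15 were RPS6KB1 at -1.01, LARP1 at -0.53 and DEPTOR at -1.70. DEPTOR was scarce there, at a mean of 16.7 normalized counts with DMSO. In SCC25, the largest of the 5 falls were MTOR at -1.06, RPTOR at -0.70 and LARP1 at -0.67. Of 10 accessory initiation proteins, 5 were higher and 2 lower in SCC15, and 8 were higher and 1 lower in SCC25. PABPC1, the poly(A)-binding protein that contacts eIF4G, rose by 1.12 and 0.37. Of 9 elongation and termination factors tested, 5 were higher and 3 lower in SCC15, and 3 were higher and 5 lower in SCC25. EEF2, the translocase of elongation, rose by 1.46 in SCC15 and fell by 0.89 on the log2 scale in SCC25. With equal totals (all genes, 14.8% higher and 50.5% lower) the counts in SCC15 were 2 higher and 4 lower for the kinases and phosphatase, 5 and 8 for the mTORC1 and MNK inputs, 1 and 4 for the accessory proteins, and 3 and 3 for elongation and termination. In SCC25 on that scale (all genes, 30.4% and 47.4%), they were 5 and 3, 6 and 7, 5 and 2, and 2 and 7.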

How the data were processed

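RNA was sequenced by the authors from 12 libraries, 3 per treatment in each cell line. The submitters' processing notes name GRCh38 (hg38), HISAT2 2.0.5 and featureCounts 1.5.0-p3, and the authors compared treatments with DESeq2. The deposited signal per gene is the read count divided by 1 size factor per library, set by the authors within each line (the columns of the SCC25 table carry the name FPKM). Times that factor, all values were whole reads within 0.05 of a read, and the recovered reads served the count models. The authors' mean, fold and p-value columns were not used. The strand setting, the annotation release and the handling of reads that fit several genes are not given in the sources used here.

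Treatments were compared by limma 3.58.1 in R 4.3.3, fitted to log2-transformed values (pseudocount 1, trended eBayes, two-sided). Calls required a Benjamini-Hochberg adjusted p below 0.05 over genes with a mean of at least 10 (15902 in SCC15, 16539 in SCC25, 14454 in both). Alternatives were a pseudocount of 10, all genes above 0, TMM factors, equal library totals, edgeR 4.0.16, DESeq2 1.42.0, the replicate block and each library left out. Values in every library are given for the 5 members with the largest called rise and the 5 with the largest called fall in each line (mean of at least 100), members with opposite calls, and EIF2S1, EIF2B5, EIF4E, EIF4EBP1, EIF4A1, EIF4A2, EIF4G1, EIF4G2, EIF4G3 and EIF3A. Members and lists were chosen with earlier results of these data known. The scripts were tested on simulated data.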

Additional observations from a re-analysis of the deposited data

Results flagged for a closer look

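The response to squamocin differed between SCC15 and SCC25 for 34 of 49 members by the limma contrast, which tests the difference itself. Over all 14454 genes tested in both lines, 26.1% were called with a higher response in SCC15 and 26.0% with a lower one. Each value below is the log2 fold change in SCC15 minus that in SCC25. In the eIF3 complex the differences were EIF3L 2.03, EIF3C 1.98, EIF3D 1.98, EIF3G 1.78, EIF3F 1.11, EIF3B 1.07, EIF3M 1.05, EIF3H 0.95, EIF3K 0.90, EIF3E 0.88 and EIF3I 0.76. For eIF2, eIF2B and the alternative tRNA carriers they were EIF2S3B 1.29, EIF2A 1.19, EIF2D 1.13, EIF2S3 0.99, EIF2B3 0.86, EIF2B2 0.70, EIF2S2 0.64 and EIF2B1 0.47. Among the genes named EIF4 they were EIF4A1 1.95, EIF4EBP1 1.36, EIF4B 1.26, EIF4G1 1.12, EIF4A2 1.04, EIF4H 0.97 and EIF4A3 0.74, and for the remaining genes above 0 they were EIF1 0.67 and EIF6 0.65. The response was lower in SCC15 for 6 genes, at EIF5 -0.32, EIF4G2 -0.52, EIF1B -0.64, EIF1AD -0.69, EIF5A2 -1.16 and EIF4EBP2 -1.68. EIF3C, one of a pair of near-identical genes with erratic counts, had an adjusted p of 0.0255 and lost its call with equal library totals, as did EIF2B1 and EIF6. The differences of EIF1AX, EIF2S1, EIF3J, EIF4E, EIF4E2 and EIF5B were called only with equal totals, all with a lower response in SCC15. No member was called with opposite signs of the difference under the 2 scalings.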

How the results depend on the processing

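The pseudocount of 10, the inclusion of all genes above 0 and TMM factors moved no count of members by over 1.5 times and turned no member's direction, within the lines and in the difference. The same held for edgeR and DESeq2, which were run within each line and not for the difference, except that DESeq2 gave no adjusted p for EIF3CL in SCC15. Libraries with the same replicate number showed no shared shift, as their deviations correlated by -0.0511 to 0.0078. Whether they were handled together is not given in the labels. With the replicate block, 31 members were higher and 4 lower in SCC15, 20 higher and 18 lower in SCC25, and 28 above and 5 below in the difference. The choice of scaling mattered most.

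With equal library totals, 18 members were higher and 14 lower in SCC15, 9 were higher in SCC25, and 12 differed with a lower response in SCC15. The median of the members became 0.079 in SCC15, -0.17 in SCC25 and 0.45 in the difference. Signs turned in SCC15 for EIF1AX (-0.29), EIF2B1 (-0.13), EIF2B4 (-0.035), EIF2B5 (-0.18), EIF3B (-0.34), EIF4A3 (-0.096), EIF4E3 (-0.24), EIF4ENIF1 (-0.34), EIF4H (-0.25) and EIF5A2 (-0.033). In SCC25 they turned for EIF2A (-0.035), EIF2B5 (-0.053), EIF2D (-0.16), EIF2S2 (-0.021), EIF3E (-0.17), EIF3J (-0.1), EIF3K (-0.047), EIF3M (-0.17), EIF4E2 (-0.036) and EIF6 (-0.14). All these genes move down by construction of this scaling.

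With each library left out in turn, members higher numbered 26 to 33 and members lower 4 to 8 in SCC15, and 18 to 23 and 15 to 18 in SCC25. The difference had 27 to 30 above and 5 to 10 below. Medians were 0.45 to 0.67 in SCC15, 0.0086 to 0.044 in SCC25 and 0.56 to 0.81 in the difference. The highest counts of lower members, 8 in SCC15 and 10 in the difference, and the lowest medians, 0.45 and 0.56, came without squamocin replicate 3 of SCC15, where the cause was not tested. EIF3CL ranged from -0.80 to 1.13 in SCC15, turning sign to 1.13 without DMSO replicate 2. The log2 ratio of EIF4G2 to EIF4G1 in SCC15 ranged from -0.078 to 0.038 around its value near 0, and was 0.038, 0.035 and 0.036 without squamocin replicate 1, squamocin replicate 2 and DMSO replicate 2. Reads carry no molecular identifiers, and 3 libraries a group cannot bring the exact permutation test of a ratio below 0.1.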
